A study of Homo sapiens with 2 samples.

Results

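Interferon-stimulated effector genes are the genes whose products carry out the antiviral state that interferons induce. The 45 genes described here were taken as a list by name, each matched to 1 gene ID among the 62699 with counts, by a rule that uses no measured value, although the list was drawn up with earlier results of these data known. RNA was sequenced from HCC1954, an established HER2-positive human breast cancer cell line, in 2 libraries of polyadenylated RNA. The genotype labels name 1 of them ASO-NC and the other ASO-1235, while the title of the ASO-1235 library has the prefix Si, so the kind of reagent is not certain. The series asks what LINC01235 does to transcription in these cells. Both groups are the same cell line, and the sources used here do not give dose, duration or number of cultures. With 1 library in each group no difference has a replicate check, so no p-value is given and every statement compares these libraries, not the conditions.

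Interferons of type I and type III bind receptors at the cell surface and activate the kinases JAK1 and TYK2. The signal passes to transcription factors, STAT2 and IRF9 among them, which bind a short DNA sequence, the interferon-stimulated response element, in the promoters of effector genes. The effectors act at many steps of a viral life cycle. Some sense or degrade viral RNA, some block entry at membranes, some modify proteins with the ubiquitin-like protein ISG15, and many tumour cell lines express part of the set with no virus present.

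The response element can be read in the promoters of members with ratios of ASO-1235 over ASO-NC below 1 and above 1. In the main form searched it was not found for XAF1 and SAMD9L, the genes with the lowest and the highest ratio. RefSeq promoter windows on GRCh38.p14, from 250 bases before to 50 after a gene's start, were at hand for 37 of the 45 genes, and 27 of these 37 (73.0%) held the core of the element on either strand, searched as GAAA, any 2 bases and GAAA again. Among all 27305 genes with a window the share was 4.38%, and among all 35116 windows, several of which can belong to 1 gene, it was 3.57%. With a C required after the last GAAA the shares were 62.2% of members and 0.952% of all genes. Stretches upstream of the start are shown for 7 genes, 5′ to 3′ on the strand of the gene, with the matches in capitals. A match on the opposite strand reads as TTTC, any 2 bases and TTTC, and where capitals run past 10 bases matches overlap or adjoin. They were chosen to show both sides: the first 4 belong to genes with a ratio of ASO-1235 over ASO-NC below 1 and the last 3 to genes with a ratio above 1.
ISG15, chr1:1013369-1013414, plus strand: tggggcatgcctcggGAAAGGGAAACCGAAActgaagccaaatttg
IFI6, chr1:27672261-27672363, minus strand: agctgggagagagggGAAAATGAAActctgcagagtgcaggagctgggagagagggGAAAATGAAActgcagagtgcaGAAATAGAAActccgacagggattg
IFIT1, chr10:89392492-89392544, plus strand: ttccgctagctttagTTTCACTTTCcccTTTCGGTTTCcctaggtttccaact
IFI44, chr1:78649756-78649795, plus strand: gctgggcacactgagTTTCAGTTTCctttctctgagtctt
HERC5, chr4:88456979-88457069, plus strand: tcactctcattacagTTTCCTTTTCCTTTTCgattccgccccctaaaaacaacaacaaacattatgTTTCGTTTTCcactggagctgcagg
SAMD9, chr7:93118091-93118130, minus strand: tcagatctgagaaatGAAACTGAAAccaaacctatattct
DDX60L, chr4:168480518-168480587, minus strand: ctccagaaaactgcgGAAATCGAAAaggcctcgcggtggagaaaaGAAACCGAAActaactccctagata

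Genes with and without the motif overlapped in their ratio of ASO-1235 over ASO-NC. Among members with a window and at least 1 CPM (counts per 1000000 counts) in a library, the 26 with a match had ratios from 0.441 to 1.23 with a median of 0.820, and the 9 without had ratios from 0.370 to 1.58 with a median of 0.697. Of the 8 members with a window and a ratio above 1, 7 held a match. By the call defined below, 7 of the 10 called lower and 19 of the 25 others held a match. No match says only that these letters are not in this window, as for XAF1, UBE2L6, IFI35, HERC6, OAS1, CMPK2, SP100, SP110, SAMD9L and IFI16. No window was at hand for IFIT2, IFITM2, LY6E, MX2, OAS2, OASL, PARP10 and USP18.

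The libraries held 48092494 (ASO-NC) and 37916307 (ASO-1235) counts, of which the 45 genes took 0.237% and 0.205%. LINC01235 had 1337 and 0 counts, and a count of 0 allows up to 3. All 8 markers of HER2-positive breast epithelium used as a check, ERBB2 among them, stood between 142 and 4860 CPM. Of 8 immune markers, 1 reached 1 CPM, LYZ at 2.10 and 1.13, and the sum of the list was 2.23 CPM in ASO-NC and 1.54 in ASO-1235. NKG7 and ITGAX had 0 counts in both libraries, PTPRC had 0 and 8 counts and CD3E 0 and 4. Of 6 fibroblast markers 1 reached 1 CPM (COL1A1), with sums of 45.1 and 40.8 CPM, and of 4 endothelial markers also 1 (VWF), with sums of 8.07 and 7.40 CPM.

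Of the 45 genes, 43 reached 1 CPM in at least 1 library. IFI16, a nuclear DNA sensor, had 2 and 6 counts, and EPSTI1 had 16 and 20, and neither enters the counts that follow. The ratio is that of ASO-1235 over ASO-NC after scaling of the libraries by the trimmed mean of M-values (TMM). Its 95% interval is exact given the sum of both counts and covers counting error only, and it is too narrow where both mates of a read pair were counted. A gene was called lower or higher when its ratio differed from 1 by at least 1.5-fold and the interval excluded 1.

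Effector genes as a group were lower in the ASO-1235 library, but by very different amounts. In bulk RNA, fewer cells expressing a gene and less RNA per cell cannot be told apart. Called lower were 12 of the 43 genes (27.9%), against 2.95% of all 14352 genes at 1 CPM, and called higher was 1, SAMD9L (2.33%), against 6.40%. Scaling by total count gave 9 lower and 1 higher, with 1.98% and 8.61% of all genes called. On halved counts 11 were called lower and 0 higher, against 2.0% and 5.20%. With a minimum of 5 CPM, which 37 members reached and SAMD9L did not, 8 were called lower and 0 higher, against 0.939% and 2.59%. At 2-fold XAF1, IFITM1 and UBE2L6 (3 genes) were called lower and 0 higher, against 0.516% and 2.53%. Asking only for a ratio of 0.8 or less, or the same change upward, gave 21 lower and 1 higher, against 10.9% and 14.7%. Ratios ran from 0.370 for XAF1 to 1.58 for SAMD9L, with 33 of 43 below 1 (76.7%, against 49.9% of all genes) and 10 above it (against 50.1%). The median log2 ratio was −0.31, against 0.00087 over all genes. The whole interval lay below 1 for 26 genes and above 1 for 5, where 29.8% and 29.7% of all genes did so. Of these, the intervals of IFITM2, IFIT2 and SAMD9L held 1 on halved counts. Ordered by ratio, no gene was separated from the next by its interval. The sum over the 43 genes was 2439 CPM in ASO-NC against 1986 in ASO-1235, and IFI6 alone made up 22.4% of the difference of these sums.

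**Figure D1:**
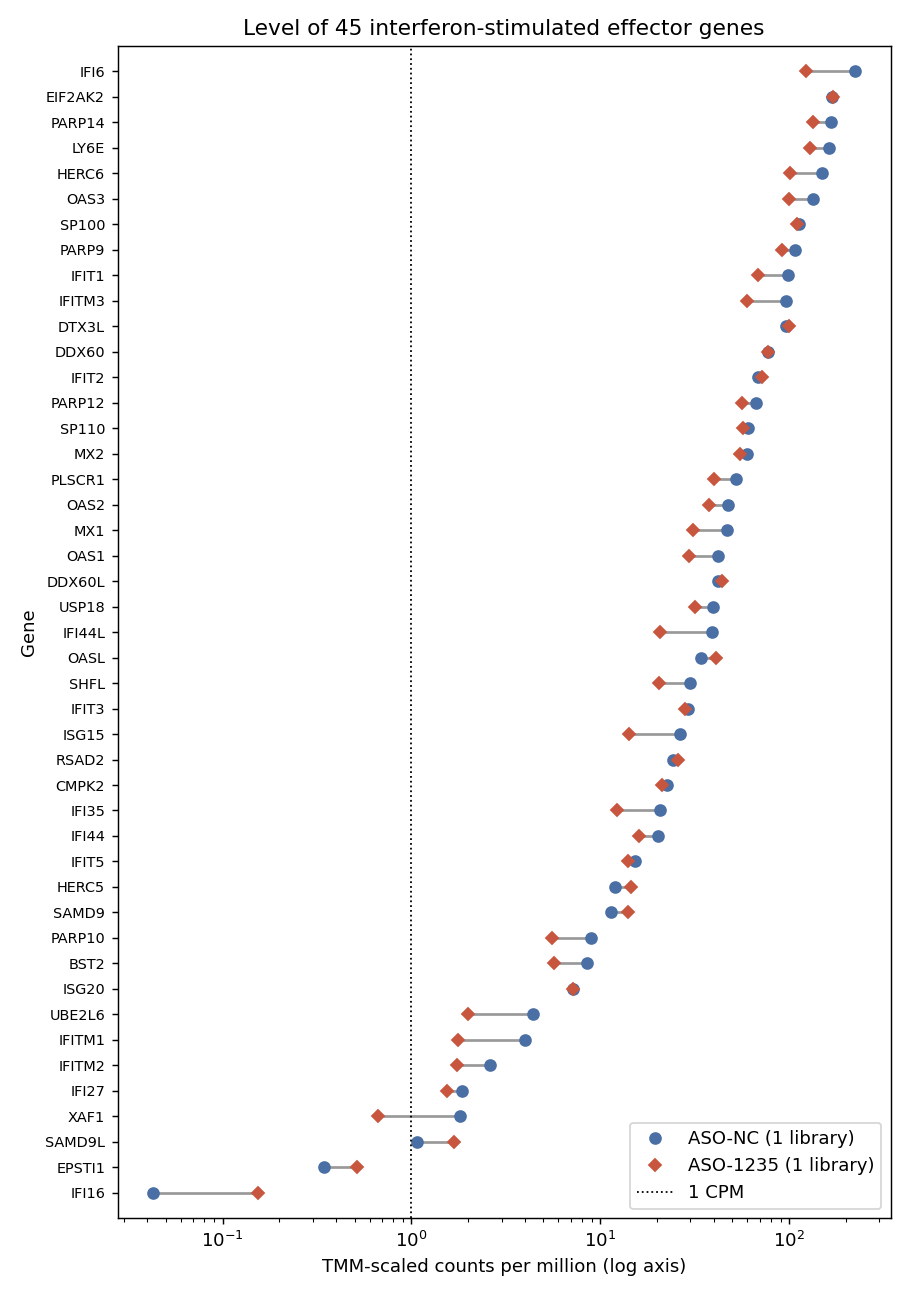
Level of each of the 45 genes in the ASO-NC library (circles) and the ASO-1235 library (diamonds), in TMM-scaled CPM on a log axis, with a dotted line at 1 CPM. IFI6 is the highest in ASO-NC at 224 CPM and stands at 122 CPM in ASO-1235, while IFI16 and EPSTI1 lie under 1 CPM in both.

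ISG15 and the enzymes that attach and remove it lay on both sides of 1. ISG15, a ubiquitin-like protein that is conjugated to other proteins and is also secreted, had 1228 counts in ASO-NC and 553 in ASO-1235, which is 26.3 and 14.2 CPM and a ratio of 0.538 (0.486 to 0.596). UBE2L6, the conjugating enzyme that passes ISG15 on, had 206 and 78 counts, giving a ratio of 0.453 (0.344 to 0.590). Both were called lower. HERC5, the main ligase for ISG15 in human cells, had 555 and 570 counts and a ratio above 1, at 1.23 (1.09 to 1.38). HERC6, its neighbour on chromosome 4, was much more abundant and stood on the other side of 1, with 6968 and 3957 counts, with a ratio of 0.679 (0.653 to 0.706), just short of 1.5-fold. USP18, the protease that removes ISG15 and restrains the interferon receptor, had 1851 and 1245 counts, with a ratio of 0.804 (0.748 to 0.865). The modifier and its conjugating enzyme were called lower, while the ratio of the ligase HERC5 was above 1 and was not called.

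The small proteins of the IFI6 family and the membrane proteins all had ratios below 1. IFI6, which sits in mitochondria and the endoplasmic reticulum and counters cell death, had 10456 and 4773 counts, 224 and 122 CPM, giving a ratio of 0.546 (0.527 to 0.565). Per kilobase of its longest transcript it was also the most abundant member in both libraries, at 266 CPM per kb in ASO-NC and 145 in ASO-1235. IFI27 of the same family was near the minimum of 1 CPM at 86 and 60 counts, and its interval held 1 (0.590 to 1.17). All 6 membrane proteins had intervals below 1, against 29.8% of all genes, and 4 were called lower, against 2.95%. Their transcripts were short and rich in GC, with medians of 956 nucleotides and 56.2%. With the trend on GC content and length removed, as described below, only IFITM1 of the 6 was called. IFITM3, which blocks the fusion of viruses with endosomes, had 4479 and 2335 counts, 95.9 and 59.8 CPM, giving a ratio of 0.623 (0.593 to 0.656). IFITM1, found at the cell surface, had 187 and 69 counts, giving a ratio of 0.441 (0.3298 to 0.584). IFITM2 had 122 and 68 counts, giving a ratio of 0.666 (0.488 to 0.904) whose interval included 1 on halved counts (0.425 to 1.03). The 3 IFITM genes are close copies of each other, and IFITM1 and IFITM2 overlap on the same strand in the annotation, so how reads were split among them is uncertain. BST2, or tetherin, which holds budding virus at the cell surface, had 399 and 221 counts, giving a ratio of 0.662 (0.559 to 0.783). LY6E and the scramblase gene PLSCR1, both abundant, had smaller differences, with 7547 and 5023 counts at 0.796 (0.768 to 0.825) and 2426 and 1569 counts at 0.773 (0.725 to 0.824).

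**Figure D2:**
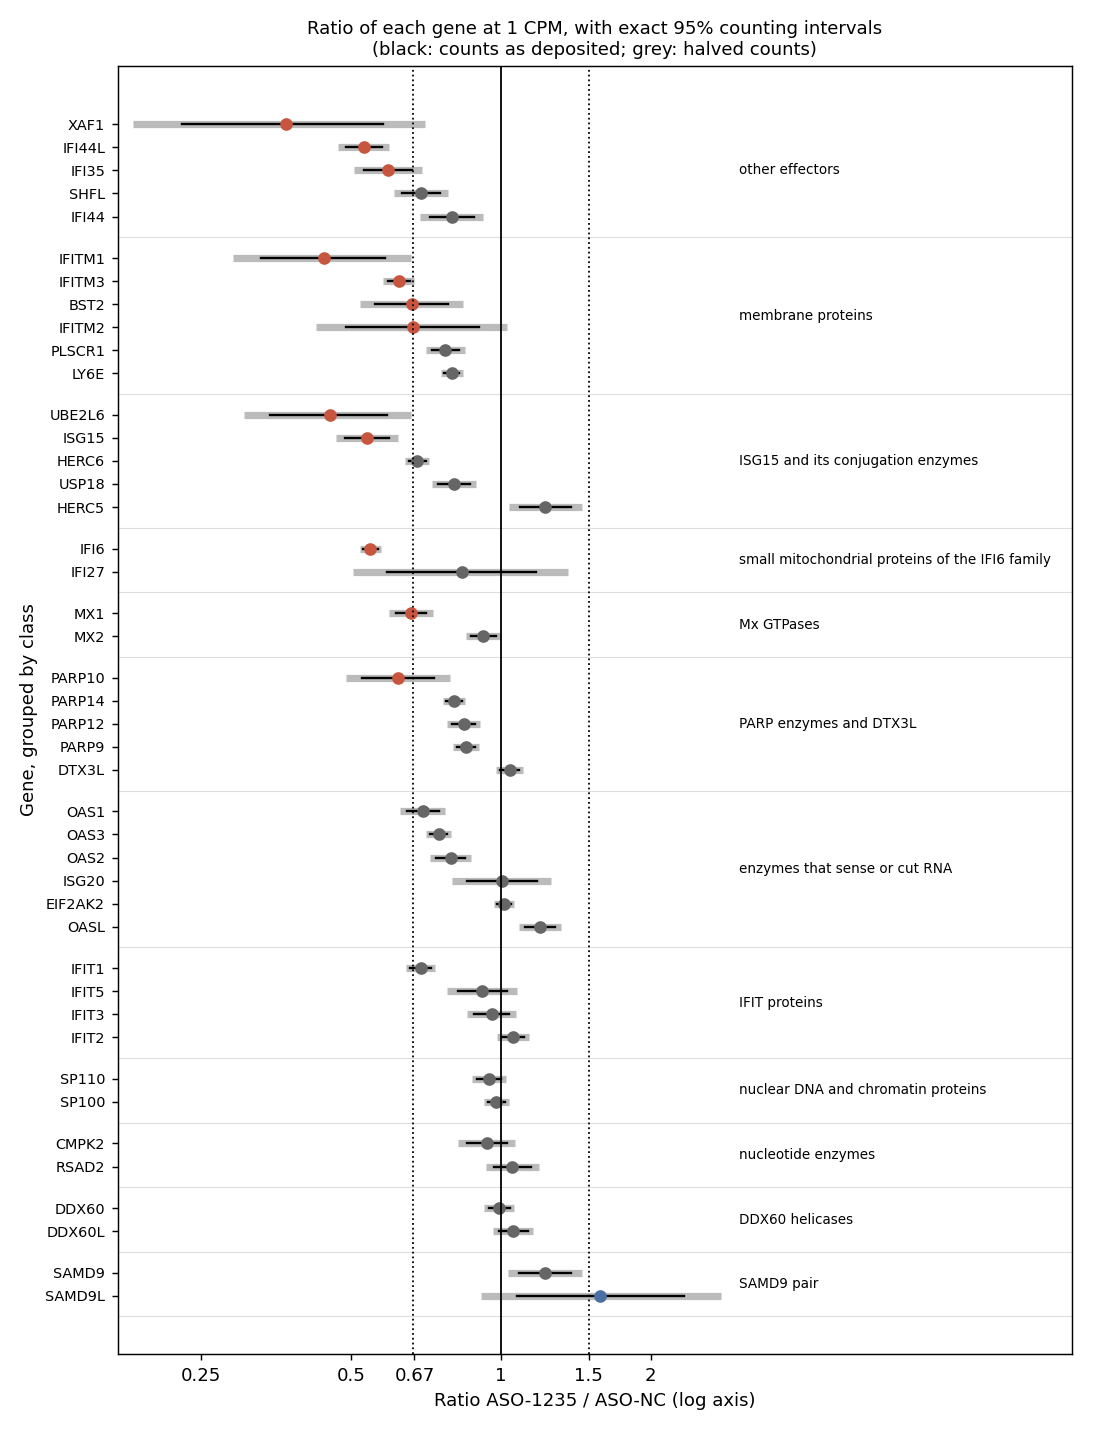
Ratio of ASO-1235 over ASO-NC for the 43 genes at 1 CPM, by class, on a log axis, with exact 95% counting intervals for the counts as deposited (black) and for halved counts (grey). Points in red were called lower (12), the point in blue higher (SAMD9L), and dotted lines mark 1.5-fold. All membrane proteins lie below 1 and both SAMD9 genes above it.

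The enzymes that sense or cut RNA divided within the OAS family. The 3 OAS enzymes make 2′-5′-linked oligoadenylates on double-stranded RNA, which activate the nuclease RNase L. OAS1 had 1966 and 1146 counts, giving a ratio of 0.697 (0.647 to 0.750). OAS3 had 6207 and 3891 counts, giving a ratio of 0.750 (0.720 to 0.780). OAS2 had 2220 and 1472 counts, giving a ratio of 0.793 (0.742 to 0.847). These lie side by side on chromosome 12 and had intervals that overlap for each adjacent pair. OASL, a relative without that catalytic activity that lies elsewhere on the chromosome, had 1601 and 1604 counts, 34.3 and 41.1 CPM, and a ratio above 1, at 1.20 (1.12 to 1.28). EIF2AK2, the kinase PKR that stops translation on double-stranded RNA, was the second highest member in ASO-NC by CPM and differed little, with 7896 and 6697 counts (169 and 171 CPM) and a ratio of 1.01 (0.982 to 1.05). The exonuclease gene ISG20 had 335 and 281 counts, with a ratio of 1.0 (0.853 to 1.18). No gene of this class was called in either direction, where 2.95% of all genes were called lower and 6.40% higher. With 6 genes nothing is read from this.

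The IFIT genes, whose products bind viral RNA 5′ ends or assemble with each other, lie within 1 cluster on chromosome 10. IFIT1, which binds RNA that lacks the methylation of a mature cap, stood apart from the rest with 4620 and 2665 counts, 98.9 and 68.2 CPM, giving a ratio of 0.690 (0.657 to 0.724). IFIT2 had 3178 and 2809 counts, giving a ratio of 1.06 (1.004 to 1.11) whose interval held 1 on halved counts (0.983 to 1.14). IFIT3, which binds and stabilises IFIT1, had 1364 and 1092 counts, giving a ratio of 0.957 (0.883 to 1.04). IFIT5 had 712 and 546 counts, giving a ratio of 0.917 (0.819 to 1.03). The interval of IFIT1 lay below those of the other IFIT genes on the counts as deposited and on halved counts. None of the 4 was called, where 2.95% of all genes were called lower and 6.40% higher, so nothing is read from this. LIPA, annotated across IFIT1, IFIT2 and IFIT3 on the opposite strand, had 1582 and 1333 counts, with a ratio of 1.01 (0.936 to 1.08).

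The dynamin-like Mx GTPases, which trap viral nucleoproteins and capsids, also differed from each other. MX1 had 2181 and 1203 counts, giving a ratio of 0.660 (0.614 to 0.708), and was called lower. MX2, next to it on chromosome 21, had 2776 and 2141 counts, with a ratio of 0.922 (0.871 to 0.976). RSAD2, or viperin, makes a chain-terminating nucleotide from CTP and is paired head to head on chromosome 2 with CMPK2, a nucleotide kinase. RSAD2 had 1136 and 1001 counts at 1.05 (0.967 to 1.15), and CMPK2 had 1053 and 825 counts at 0.937 (0.854 to 1.03), so both intervals held 1.

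The SAMD9 genes and the DDX60 helicases were near or above 1. SAMD9, a restriction factor for poxviruses that can stop translation, had 534 and 548 counts, 11.4 and 14.03 CPM, giving a ratio of 1.23 (1.09 to 1.39). SAMD9L, its neighbour and relative on chromosome 7, had 50 and 66 counts, giving a ratio of 1.58 (1.08 to 2.33), the single gene called higher. That call rests on few reads and was lost on halved counts (0.910 to 2.77). DDX60 and DDX60L, helicase-like genes on chromosome 4, had 3612 and 2996 counts at 0.992 (0.945 to 1.04) and 1951 and 1728 counts at 1.06 (0.992 to 1.13). PALLD, annotated across 40721 bases of DDX60L on the opposite strand, had a ratio of 1.18 (1.13 to 1.24).

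Among the ADP-ribosyltransferases of the PARP family, all 4 had intervals below 1, while that of their listed partner, the ubiquitin ligase DTX3L, held 1. Of all genes, 29.8% had intervals below 1. PARP14 had 7723 and 5199 counts, giving a ratio of 0.805 (0.777 to 0.834). PARP12 had 3128 and 2200 counts, giving a ratio of 0.841 (0.796 to 0.888). PARP10 had 417 and 217 counts, giving a ratio of 0.622 (0.526 to 0.735), and was called lower, although 3358 bases of it overlap GRINA, which had 12153 and 9068 counts. PARP9 forms a complex with DTX3L, and the genes are transcribed away from each other on chromosome 3 from starts that overlap by 340 bases. The same motif match, from 122564332 to 122564341, lies in the promoter windows of both. PARP9 had 5005 and 3561 counts at 0.851 (0.815 to 0.888), and DTX3L had 4466 and 3887 counts at 1.04 (0.997 to 1.09), intervals that did not overlap.

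The nuclear body genes SP100 and SP110 differed little, with 5261 and 4305 counts at 0.978 (0.940 to 1.02) and 2813 and 2225 counts at 0.946 (0.894 to 1.0003). The other effectors held some of the lowest ratios. XAF1, which antagonises the apoptosis inhibitor XIAP, had 84 and 26 counts, 1.80 and 0.666 CPM, giving a ratio of 0.370 (0.229 to 0.581). IFI44L had 1819 and 807 counts, 39.0 and 20.7 CPM, giving a ratio of 0.531 (0.488 to 0.577). Its neighbour and relative IFI44 on chromosome 1 had 938 and 625 counts, with a ratio of 0.797 (0.719 to 0.883), above the interval of IFI44L. IFI35, a leucine zipper protein, had 966 and 479 counts, giving a ratio of 0.593 (0.530 to 0.662). SHFL, an inhibitor of viral frameshifting, had 1385 and 799 counts, giving a ratio of 0.690 (0.632 to 0.753). All 5 genes at 1 CPM of this class had intervals below 1, against 29.8% of all genes. XAF1, IFI44L and IFI35 were called lower, against 2.95% of all genes.

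Neighbours on the chromosome could differ in their ratios. There were 14 pairs of adjacent members within 100 kb, made of 24 genes. The intervals were apart in 7 pairs, against 37.4% of all 11086 adjacent pairs of genes at 1 CPM within that distance. On halved counts, where IFITM1 and IFITM3 overlapped, they were apart in 6 pairs, against 22.2%. Members had a median of 39.6 CPM in ASO-NC and all genes 19.0, and intervals narrow with the level, so nothing particular to the members is read from these counts. The widest difference was between HERC6 and HERC5, which lie 14 kb apart on the same strand and whose ratios differed 1.81-fold on either side of 1. IFITM2 and IFITM1, whose intervals overlapped, differed 1.51-fold. IFI44L and IFI44, 3.65 kb apart, differed 1.502-fold, and IFITM1 and IFITM3 1.41-fold. MX2 and MX1, 10.9 kb apart, differed 1.40-fold. The OAS genes, the DDX60 genes, the SAMD9 genes, IFIT2 with IFIT3 and RSAD2 with CMPK2 also had overlapping intervals. Some of the pairs are members of 1 gene family, and how the authors' counting split reads of similar genes is not known.

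**Figure D3:**
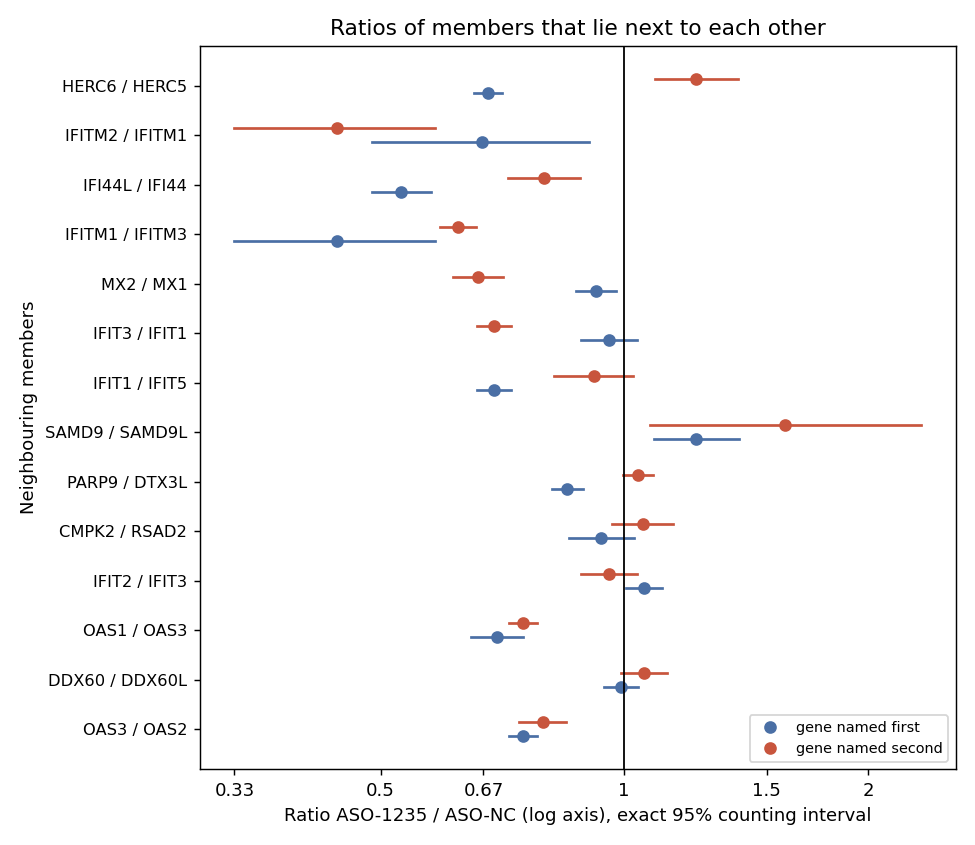
Ratio of ASO-1235 over ASO-NC with its exact 95% counting interval for 14 pairs of members that lie next to each other, on a log axis. HERC6 at 0.679 and HERC5 at 1.23 are the farthest apart, and OAS3 and OAS2 the closest.

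Ratios varied with the composition and length of the transcripts, among members as among all genes. Across the 43 members the log2 ratio had a Spearman correlation of −0.54 with the GC content of the longest annotated transcript and 0.56 with its length. Across 14020 genes the values were −0.46 and 0.20. These genes share the same libraries and are not independent replicates. In the third of all genes with the highest GC content, above 53.4%, all 12 members had ratios below 1 and 8 were called lower (66.7%), against 74.5% and 5.20% of all genes there. In the third with the lowest GC content, up to 43.9%, 10 of 16 members had ratios below 1 and 2 were called lower (12.5%), against 23.7% and 0.984% of all genes. SAMD9L was called higher there, as were 8.62% of all genes. At GC contents between these 11 of 15 members had ratios below 1 and 2 were called lower (13.3%), against 51.9% and 2.27%. In the third with the shortest transcripts, up to 2.62 kb, all 16 members had ratios below 1 and 8 were called lower, against 60.2% and 5.09% of all genes. In the third with the longest, above 4.59 kb, 7 of 13 members had ratios below 1 and 1 was called lower, against 38.5% and 1.20% of all genes. SAMD9L was called higher, as were 6.21% of all genes there. At lengths between these 10 of 14 members had ratios below 1 and 3 were called lower, against 51.4% and 2.16%. The median GC content was 56.5% for the 12 genes called lower and 44.1% for the 31 others, and the median length 1130 and 3796 nucleotides. What part of the difference this accounts for was not tested. XAF1 and IFI44L were the exceptions of low GC content among the genes called lower, at 43.0% and 37.8%.

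**Figure D4:**
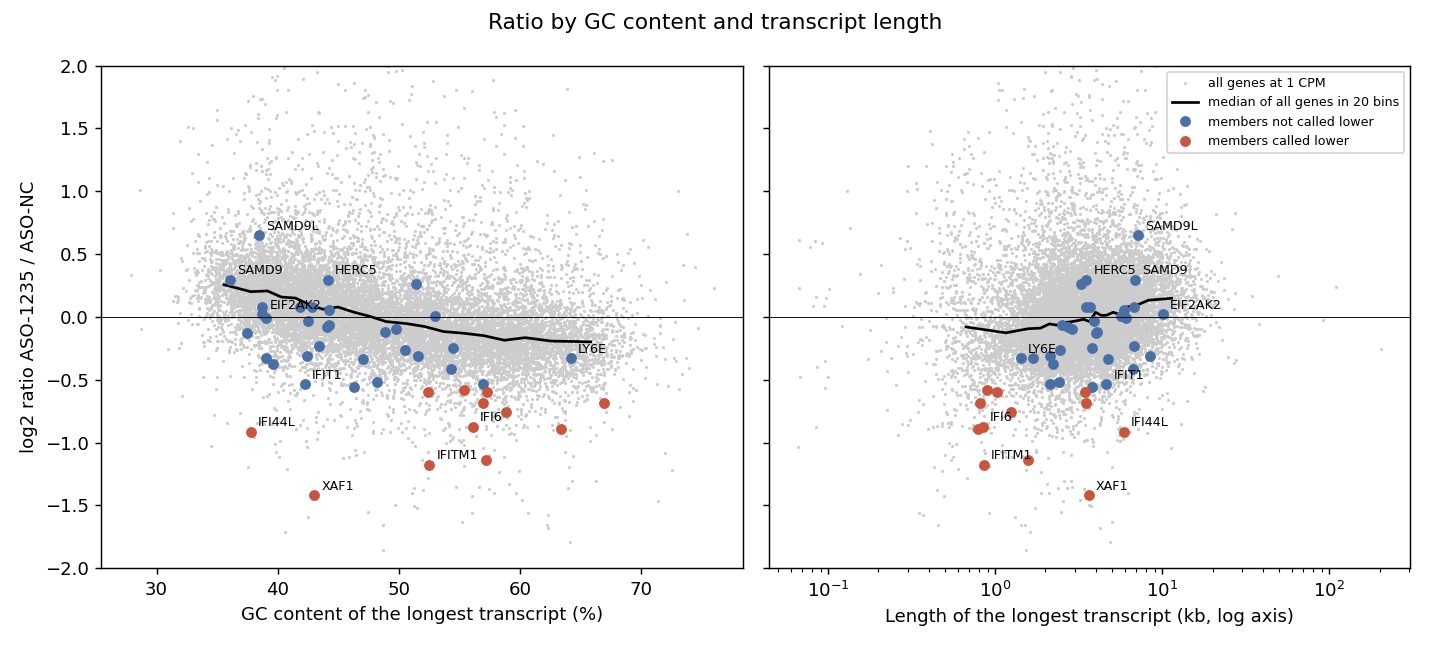
Log2 ratio of ASO-1235 over ASO-NC against GC content (left) and length on a log axis (right) of the longest transcript, for all genes at 1 CPM (grey, vertical axis limited to 2 log2 units either side), their median in 20 bins (line) and the members called lower (red) or not (blue). Most red points lie at high GC content and short length and below the line, and XAF1 and IFI44L lie at low GC content.

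With the trend on GC content and length removed, the group was still lower and its members were ordered differently. The median log2 ratio of the 43 members was −0.35, against −0.01 over 14020 genes, and 38 lay below 0. The trend was fitted over all genes and was not fully removed among the members. Their Spearman correlation with GC content was then −0.24, against −0.00027 over all genes. Called lower were 8 members, against 2.03% of all genes, and higher were 0, against 5.73%. XAF1, IFITM1, UBE2L6, IFI6, ISG15 and IFI44L were called in both forms. BST2, IFI35, IFITM2, IFITM3, MX1 and PARP10 moved inside 1.5-fold, with IFI35 at −0.56 and IFITM3 at −0.50 on the log2 scale. HERC6 at −0.59 and IFIT1 at −0.66 moved past it. SAMD9 stood at 0.02 and SAMD9L at 0.42, EIF2AK2 at −0.24 and DDX60 at −0.22. OASL at 0.33 and HERC5 at 0.22 remained above 0. With and without the trend, HERC6 and HERC5 lay on opposite sides of no difference, as did OASL and the OAS enzymes, and IFIT1 was the lowest of the IFIT genes.

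**Figure D5:**
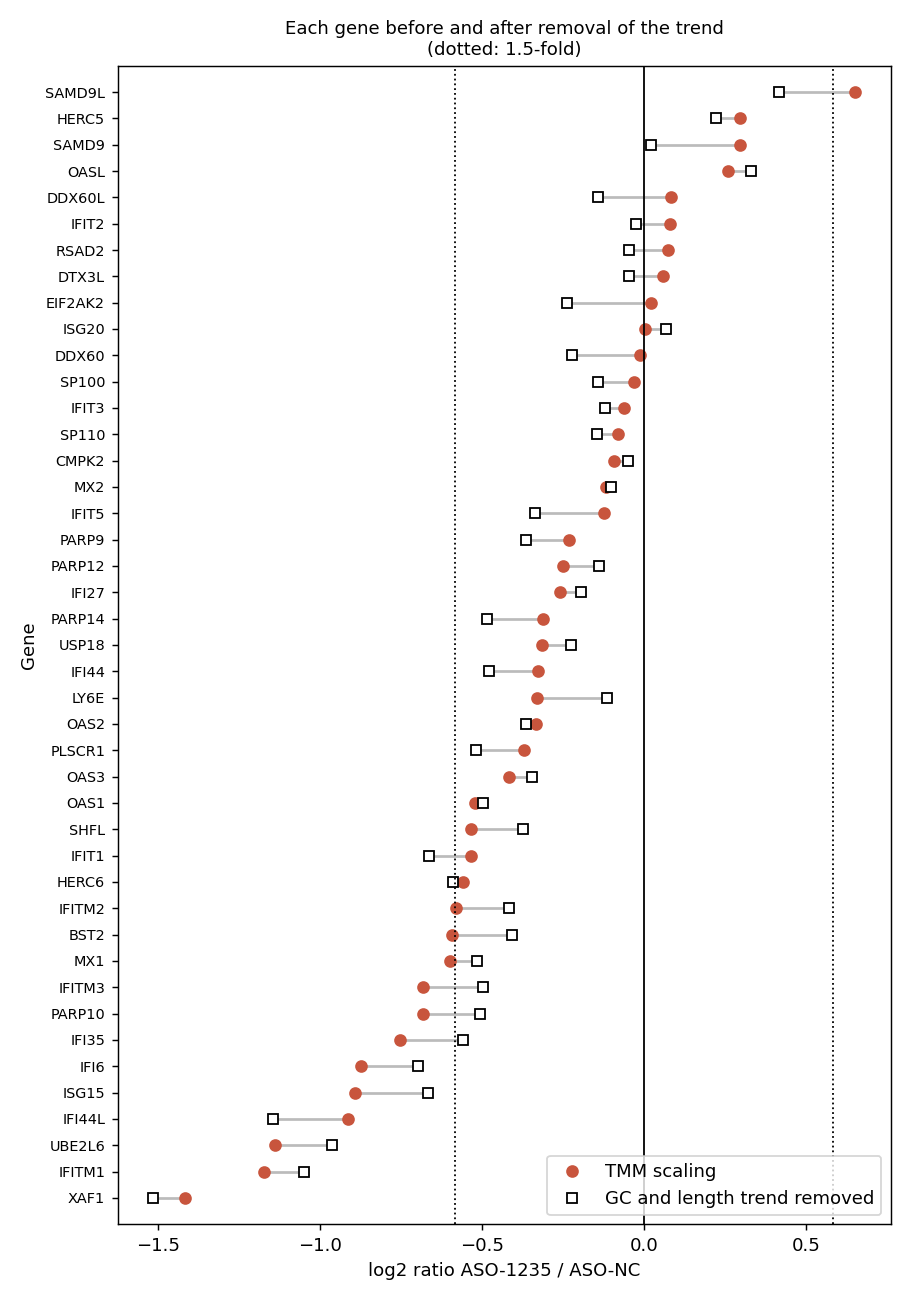
Log2 ratio of ASO-1235 over ASO-NC for each of the 43 genes with TMM scaling (filled circles) and with the trend on GC content and transcript length removed (open squares), with dotted lines at 1.5-fold. After removal 8 genes lie past the left dotted line and none past the right one.

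The other genes of the interferon pathway, listed by name in the same way, differed less in their median. Of 56 such genes 50 reached 1 CPM, 3 were called lower (6%, against 2.95% of all genes) and 0 higher, and their median log2 ratio was −0.08. On halved counts the same numbers were called, and the difference from the effector genes was not tested. Called lower were the type III interferon genes IFNL1, with 678 and 360 counts at 0.635 (0.557 to 0.723), and IFNL3, with 330 and 152 counts at 0.551 (0.451 to 0.669), and LGALS3BP, a secreted glycoprotein gene, with 3853 and 1872 counts at 0.581 (0.549 to 0.614). IFNL1 and IFNL3 are related in sequence to IFNL2, so their counts are uncertain. IFNL1 was not called when scaled by total count, at 0.673, or with the trend removed, at 0.719. IFNB1, the type I ligand, had 22 and 24 counts, and its interval held 1 (0.701 to 2.44).

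Of the factors that carry the signal to the response element, STAT2 stood at 0.737 (0.699 to 0.778) from 3600 and 2220 counts. IRF9, the DNA-binding partner, was scarce at 65 and 41 counts, with an interval that held 1 (0.497 to 1.13). IRF1 stood at 1.09 (0.976 to 1.22) and IRF7 at 1.14 (1.03 to 1.26), where the interval of IRF7 held 1 on halved counts (0.989 to 1.31). No member of the transcription factors, receptors and kinases, sensors and adaptors or feedback genes was called in either direction.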

How the data were processed

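The authors deposited raw counts per gene for both libraries, not normalized as far as the values show. Per the submitters' processing notes, the tools were STAR 2.7.11a and featureCounts 2.0.6 and the build hg38. For annotation release and strand setting the sources used here give nothing, so reads of overlapping or antisense genes cannot be told apart. A gene ID without counts and its stray coordinates (3 lines) were left out. Among genes with 1 to 1000 counts, 67.5% (ASO-NC) and 64.0% (ASO-1235) of counts were even, where single reads would give about 50%, so intervals were also computed on halved counts.

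Libraries were scaled by TMM (edgeR 4.0.16, R 4.3.3) on genes at 1 CPM, with factors of 0.971 and 1.03. edgeR served for scaling alone. Ratios carry exact (Clopper-Pearson) 95% intervals, and log2 ratios a prior count of 0.5. Reads amplified by PCR and lacking molecular identifiers are not independent, so intervals cover counting error only. The calculation was tested on simulated counts that held counting error alone. That test cannot speak to reads counted more than once or to spread between cultures. GENCODE 29 (GRCh38) gave coordinates, length and GC content, where the longest transcript stood for each gene and need not be the one expressed. The trend was a robust regression on splines of 5 degrees of freedom each (statsmodels 0.14.6), over the 97.7% of genes with both values. Alternatives were other scalings (DESeq2 1.42.0 among them), minimum counts, sizes of change, a prior count of 5 and other motif letters.

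Promoter windows were RefSeq's. The members, classes and lists were chosen with earlier results of these data known. All 45 members are given by value. Of the pathway list the rule names the genes called, with STAT2, IRF1, IRF7, IRF9, IFNB1, IFNL1 and a further gene that is not reported here.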

Additional observations from a re-analysis of the deposited data

How the results depend on the processing

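No paired analysis was possible because each group has 1 library. No library could be left out for the same reason. The number of members called lower was 12 and lay between 8 and 12 under every other scaling, minimum, prior count, on halved counts and with the trend removed. It moved with the size asked for, to 21 at a ratio of 0.8 or less and 3 at 2-fold. The 1 member called higher, SAMD9L, was lost at 2-fold, on halved counts and with the trend removed (0 each). It lies under 5 CPM, so that minimum leaves it out and does not check its call. XAF1, IFITM1, UBE2L6, IFI44L, ISG15 and IFI6 (6 genes) were called lower under every scaling, on halved counts and with the trend removed, although at 2-fold only the first 3 were, and XAF1, IFITM1 and UBE2L6 lie under 5 CPM. Of the 50 pathway genes 8 were called lower and 2 higher at 0.8 or less or the same change upward, against 10.9% and 14.7% of all genes, and 0 lower at 2-fold, against 0.516%. The share of members with a motif match was 45.9% when 1 base in place of 2 stood between the GAAA blocks, against 3.87% of all genes. In this form XAF1 held a match and SAMD9L did not. The median log2 ratio of the members stayed below 0 under every other scaling, minimum and prior count and with the trend removed. The size of change asked for and the halving of counts do not enter this median, so they cannot check it. Depth limits XAF1, IFITM1, IFITM2, UBE2L6, SAMD9L and IFI27, and leaves IFI16 and EPSTI1 without a usable ratio.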

Other observations

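Transcripts annotated across the members on the opposite strand did not all follow them. LY6E-DT, a non-coding gene that starts beside LY6E and overlaps it by 456 bases, had 235 and 389 counts, giving a ratio of 1.98 (1.68 to 2.34), whereas LY6E stood at 0.796. On halved counts the interval of LY6E-DT was 1.57 to 2.51. An antisense gene across IFI6 had 105 and 58 counts, giving a ratio of 0.661 (0.471 to 0.919), and the interval included 1 on halved counts (0.405 to 1.06). Without a known strand setting, reads of such partners cannot be told apart from those of the members. These genes were chosen after their values were seen.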
